A study of Mus musculus with 8 samples.

Results

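BATF, IRF4 and the AP-1 subunits were followed here as 10 genes: Batf, Batf3, Irf4, Irf8, Jun, Junb, Jund, Fos, Fosb and Fosl2. They were found by symbol, through the Ensembl identifier, among the 36811 gene models of the deposited expression table, and all 10 were present. RNA was sequenced from Foxp3-GFP positive regulatory T (Treg) cells of mouse spleen, sorted into a Bach2-RFP LO and a Bach2-RFP HI population. All mice were C57BL/6, aged 12 to 13 weeks, with the genotype Foxp3EGFP-DTR Bach2tdRFP/+, so LO and HI cells alike carried the red reporter on 1 Bach2 allele and a Foxp3 reporter joined to the diphtheria toxin receptor. The LO group and the HI group had 4 libraries each, labelled F1 and F2 (female) and M1 and M2 (male). The labels do not say whether libraries came from separate animals, or whether the LO and the HI library of a label came from the same animal. The p-values below therefore measure the spread between these libraries, which may be partly technical. The values are FPKM, fragments scaled by transcript length and library size, so levels of different genes are compared per length.

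AP-1 factors bind DNA as pairs of basic leucine zipper proteins, typically a JUN protein with a FOS or a BATF protein. Several FOS and JUN genes are immediate early genes, whose short-lived messages appear within minutes of a stimulus such as an antigen receptor signal. BATF lacks the activation domain of FOS, and its pairs with JUN proteins bind composite DNA elements together with IRF4 or IRF8. In mice, BATF and IRF4 are needed for effector Treg cells in tissues. BACH2 is a repressor with a leucine zipper that binds related DNA sites and restrains effector differentiation of T cells.

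The sort was visible in the libraries. Bach2 averaged 0.691 ± 0.187 FPKM in LO cells and 15.6 ± 5.56 FPKM in HI cells (SD, n = 4 each), with no overlap (limma on log2(FPKM + 1), difference -3.23, SE 0.34, adjusted p = 0.00057; exact two-sided permutation test p = 0.0286, the lowest possible with groups of 4). Foxp3 lay between 10.5 and 19.8 FPKM in LO libraries and between 13.3 and 15.2 FPKM in HI libraries. The T cell marker Cd3e was at 383 to 431 FPKM in LO libraries and at 283 to 378 FPKM in HI libraries. All 9 T cell markers were tested, and 1 was called higher in LO cells, 1 was called lower and 7 were not called. The higher one was Ikzf2, at 22.1 ± 4.25 FPKM in LO and 10.2 ± 1.40 FPKM in HI cells (SD, n = 4 each; limma, adjusted p = 0.0214). The lower one was Il2ra, at 27.7 ± 5.13 FPKM in LO and 75.6 ± 8.83 FPKM in HI cells (SD, n = 4 each; limma, adjusted p = 0.00149). Summed T cell markers ran from 7115 to 10594 FPKM in LO and from 7351 to 8464 FPKM in HI libraries. Among CD8 T cell and NK cell markers, Cd8a reached at most 0.503 FPKM in LO and 2.01 FPKM in HI libraries. Cd8b1 was at 23.8 to 33.6 FPKM in LO and 34.7 to 46.1 FPKM in HI libraries, and Eomes, at most 0.426 FPKM in LO and at 1.67 to 6.75 FPKM in HI libraries, was lower in LO cells (limma, adjusted p = 0.0183). Of the 5 markers of this list, 3 were tested and only Eomes was called, with summed levels of 26.0 to 34.2 FPKM in LO and 44.7 to 54.2 FPKM in HI libraries. Depths read from the steps between low values, relative to HI F1, ran from 0.818 to 5.27 in LO and from 0.636 to 1.27 in HI libraries, with LO M2 the deepest. Of 11260 genes with at least 1 FPKM in at least 4 libraries, 934 passed an adjusted p of 0.05 between LO and HI cells, 524 higher and 410 lower in LO, and 586 without LO F2.

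Of the 10 genes, 9 passed the filter on low values, and 1 of these differed between LO and HI cells: Batf, which was higher in LO cells. This count stands beside 8.29% of all tested genes called in the same comparison, 4.65% called higher and 3.64% called lower. By the median of the 4 LO libraries, Junb was highest at 395 FPKM, ahead of Batf at 282, Fos at 235, Irf8 at 125 and Jun at 63.4 FPKM. Jund at 21.1 FPKM and Irf4 at 5.35 FPKM came next, and Fosb at 2.53, Batf3 at 1.87 and Fosl2 at 0.234 FPKM were lowest. In HI cells the medians were 287 FPKM for Junb, 244 for Fos, 151 for Irf8, 95.7 for Batf and 92.5 for Jun, and the 5 lower genes kept the order they had in LO cells. Batf thus stood in the second place in LO cells and in the fourth place in HI cells. In LO cells, neighbours in this order overlapped in their library values except for Jun with Jund and Jund with Irf4. In HI cells the same neighbours were separated, and so were Irf8 and Batf.

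**Figure D1:**
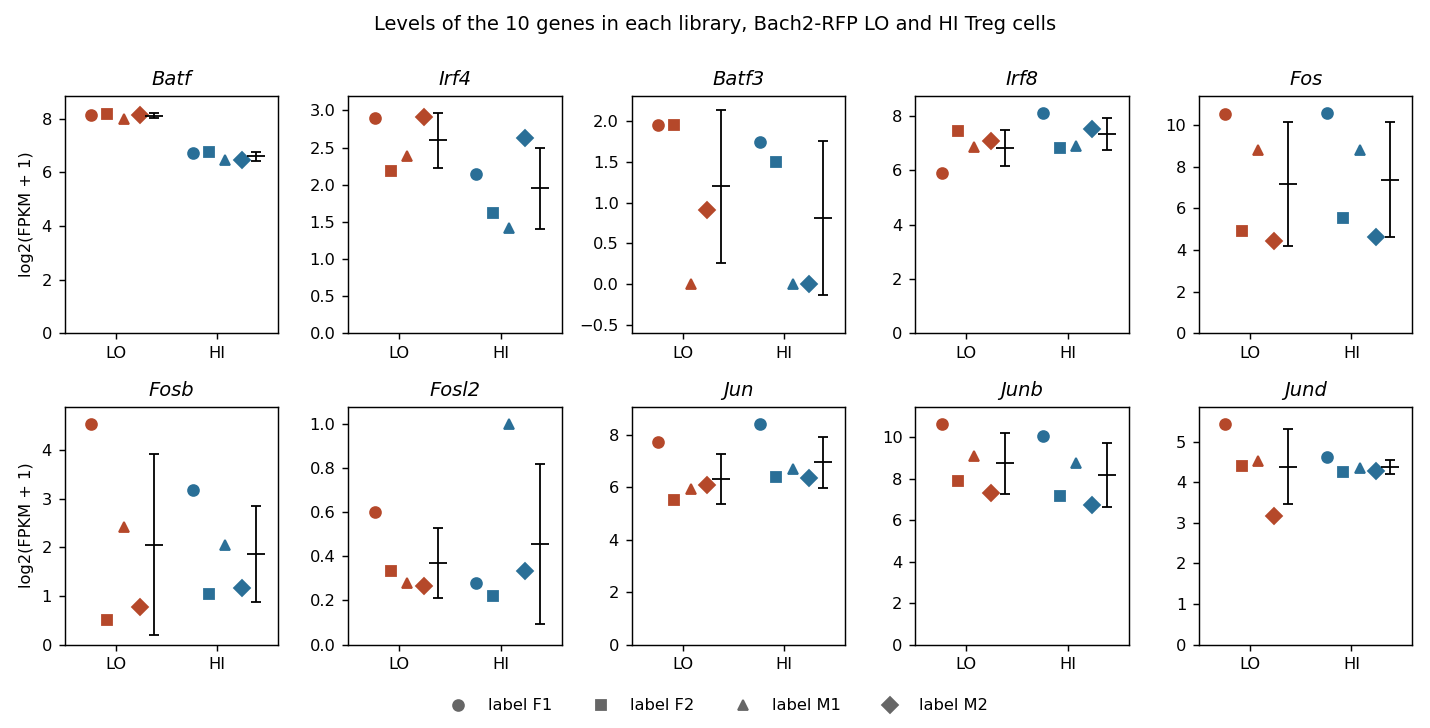
Level of each of the 10 genes, as log2(FPKM + 1), in the 4 LO and the 4 HI libraries; marker shapes give the label, and the black bar gives the mean and SD of the group. Batf separates LO from HI cells without overlap, while Fos ranges from 20.8 to 1454 FPKM in LO and from 23.6 to 1518 FPKM in HI libraries.

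Batf (ENSMUSG00000034266) encodes the leucine zipper partner of JUN proteins that works with IRF4. Its level was 282, 292, 253 and 281 FPKM in LO libraries F1, F2, M1 and M2, against 104, 108, 87.0 and 87.0 FPKM in HI libraries F1, F2, M1 and M2. All 4 LO values lay above all 4 HI values; values of the 2 groups did not overlap, in either direction, for 15.1% of tested genes. Batf averaged 277 ± 16.7 FPKM in LO cells and 96.7 ± 11.2 FPKM in HI cells (SD, n = 4 each), a ratio of 2.87. The difference was 1.51 on the log2 scale, with a standard error of 0.136 and a 95% interval of 1.21 to 1.82 (limma, adjusted p = 0.000295). From library to library Batf was even: its highest value was 1.15 times its lowest in LO cells and 1.24 times in HI cells. A larger spread within groups was seen in 98.1% of all tested genes and in 93.8% of tested genes at a similar mean level. Label by label, the ratio of LO to HI was 2.70 in F1, 2.70 in F2, 2.91 in M1 and 3.23 in M2. In bulk samples of this kind, more cells with Batf message and more Batf message per cell cannot be told apart.

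Batf3 (ENSMUSG00000026630), the related factor known for its role in cross-presenting dendritic cells, was close to the detection limit. It was at 2.85, 2.85, 0 and 0.886 FPKM in LO libraries F1, F2, M1 and M2, against 2.34, 1.83, 0 and 0 FPKM in HI libraries. In units of the smallest step of each library, taken as 1 read, these values were 1, 1, 0 and 2 in LO and 1, 1, 0 and 0 in HI libraries. The groups overlapped, and the difference was 0.39 ± 0.60 on the log2 scale (SE; limma, adjusted p = 0.774). With a pseudocount of 0.1 it was 1.05, and without HI M1 or without HI M2 it was 0.12, none of them past the threshold. No difference in Batf3 was detectable at this depth.

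Irf4 (ENSMUSG00000021356) encodes the interferon regulatory factor that is induced by antigen receptor signals and binds DNA with BATF and JUN. Its level was 6.46, 3.55, 4.23 and 6.52 FPKM in LO libraries F1, F2, M1 and M2, against 3.44, 2.08, 1.66 and 5.17 FPKM in HI libraries. The LO library was above the HI library in all 4 labels, by ratios of 1.88, 1.71, 2.55 and 1.26, but the groups overlapped because HI M2 lay above LO F2 and LO M1. Irf4 averaged 5.19 ± 1.52 FPKM in LO cells and 3.09 ± 1.58 FPKM in HI cells (SD, n = 4 each). The difference of 0.64 on the log2 scale had a 95% interval of -0.18 to 1.47 and did not pass (limma, adjusted p = 0.363). Irf4 message was scarcer than that of Batf, which stood above it by a factor of 43.1 to 82.2 in LO libraries and 16.8 to 52.4 in HI libraries. Plasma cells also use IRF4, and of 5 plasma cell markers 4 were tested and 1 was called. Jchain, the joining chain of secreted antibodies, was at 47.6 to 160 FPKM in LO and at 3.0 to 17.1 FPKM in HI libraries (limma, adjusted p = 0.00555), while Tnfrsf17 was above 0 in LO M2 alone, at 1.11 FPKM. Mzb1 was not called and averaged 4.95 ± 2.85 FPKM in LO and 9.66 ± 4.03 FPKM in HI cells, and Xbp1, also not called, averaged 104 ± 21.8 FPKM in LO and 112 ± 14.5 FPKM in HI cells (SD, n = 4 each). The summed plasma cell markers ran from 159 to 253 FPKM in LO and from 121 to 147 FPKM in HI libraries, and their part in the Irf4 values was not tested.

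Irf8 (ENSMUSG00000041515) encodes the factor that can take the place of IRF4 beside BATF, and is best known from dendritic cells, monocytes and B cells. It was at 59.6, 175, 114 and 136 FPKM in LO libraries F1, F2, M1 and M2, against 274, 112, 119 and 184 FPKM in HI libraries. The groups overlapped, with the lowest value in LO F1 and the highest in HI F1. The log2 difference of -0.51 had a 95% interval of -1.33 to 0.31 (limma, adjusted p = 0.49). Without both F1 libraries it was 0.050, so its direction rested on this label.

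Marker genes of other cell types that use IRF8 were read beside it. Siglech, a receptor of plasmacytoid dendritic cells, was at 0, 0.760, 0 and 1.40 FPKM in LO libraries F1, F2, M1 and M2, against 44.6, 7.14, 21.0 and 21.9 FPKM in HI libraries. Spib, a transcription factor of the same cells and of B cells, was between 0 and 1.40 FPKM in LO and between 3.99 and 18.0 FPKM in HI libraries. Both fell in LO cells (limma, adjusted p = 0.0020 for Siglech and 0.011 for Spib), and HI F1, the library with the most Irf8, held the most of both. Of 10 dendritic cell markers, 7 were tested and these 2 were called, and the summed level ran from 146 to 259 FPKM in LO and from 226 to 345 FPKM in HI libraries. Xcr1 was at 0 in all HI libraries and at most 0.426 FPKM in LO libraries.

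Of 10 B cell markers, 9 were tested, 3 were called lower in LO cells, Cd79a and Ms4a1 among them, and 6 were not called. Of all tested genes, 3.64% were called lower. Cd79a, a chain of the B cell receptor, averaged 4.61 ± 1.05 FPKM in LO and 48.9 ± 16.6 FPKM in HI cells (SD, n = 4 each; limma, adjusted p = 0.000295). Pax5, which defines B cells, was at 0 in all 4 LO libraries and in HI M1 and at most 3.55 FPKM in the other HI libraries. The summed B cell markers ran from 852 to 1753 FPKM in LO and from 1106 to 1662 FPKM in HI libraries. Of 10 myeloid markers, 9 were tested, Csf1r, Fcgr3 and Tyrobp were lower in LO cells, and 6 were not called, with summed levels of 146 to 349 FPKM in LO and 244 to 461 FPKM in HI libraries. Among those not called, Itgam averaged 3.28 ± 1.22 FPKM in LO and 1.04 ± 1.23 FPKM in HI cells (SD, n = 4 each; limma, adjusted p = 0.181). In the LO libraries, with Irf8 at 59.6 to 175 FPKM, Siglech, Spib and Pax5 were at 0 to 1.40 FPKM, Cd79b was at 59.9 to 92.4 FPKM and Cd74 at 624 to 1207 FPKM. The part of these cells in the Irf8 values was not tested.

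**Figure D2:**
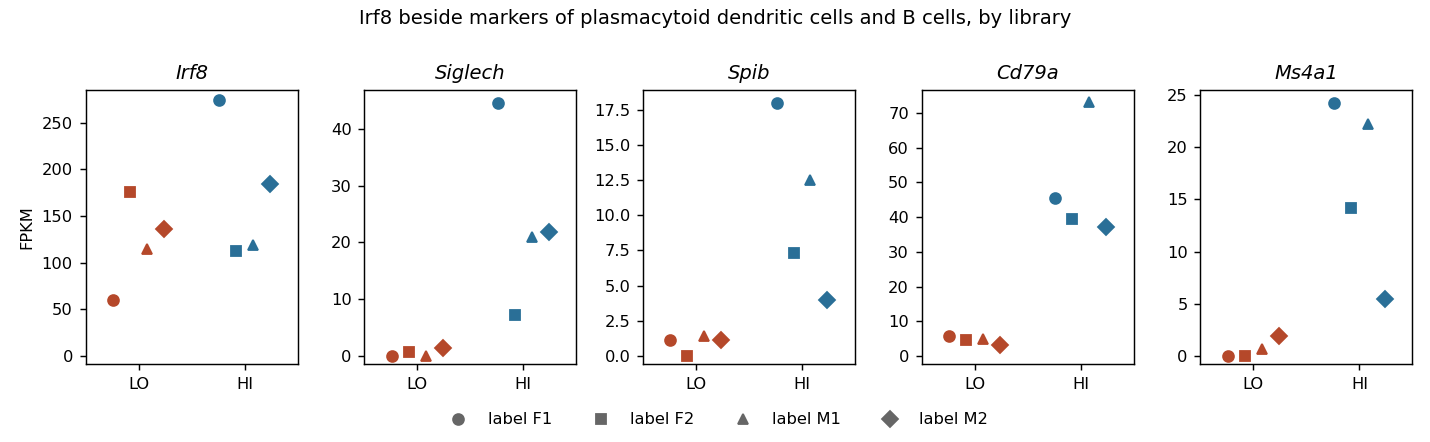
FPKM of Irf8 and of 4 markers in the 4 LO and the 4 HI libraries, with marker shapes giving the label: Siglech and Spib for plasmacytoid dendritic cells, Cd79a and Ms4a1 for B cells. Irf8 overlaps between the groups, from 59.6 to 175 FPKM in LO and from 112 to 274 FPKM in HI libraries, while each of the 4 markers is lower in every LO library than in any HI library.

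Fos (ENSMUSG00000021250), the immediate early gene that gave the FOS proteins their name, showed the widest spread of the 10 genes. It was at 1454, 28.9, 441 and 20.8 FPKM in LO libraries F1, F2, M1 and M2, against 1518, 46.0, 442 and 23.6 FPKM in HI libraries. The F1 libraries were highest, the M1 libraries next, and F2 and M2 lowest, in LO as in HI cells, and the groups overlapped over almost their whole range. The highest value was 69.9 times the lowest in LO cells and 64.3 times in HI cells, and 0.373% of tested genes had a larger spread within groups. Label by label, the ratio of LO to HI was 0.958 in F1, 0.630 in F2, 0.997 in M1 and 0.881 in M2. The log2 difference between LO and HI of -0.22 had a 95% interval of -3.78 to 3.34 (limma, adjusted p = 0.961). In this comparison, which does not pair the labels, differences of several-fold in either direction lay within the error.

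Fosb (ENSMUSG00000003545), a close relative of Fos, was low and had the same high and low labels. It was at 22.2, 0.411, 4.37 and 0.701 FPKM in LO libraries F1, F2, M1 and M2, against 8.07, 1.06, 3.17 and 1.23 FPKM in HI libraries. The groups overlapped, and the difference was 0.20 ± 0.87 on the log2 scale (SE; limma, adjusted p = 0.932). In units of 1 read, as above, the values were 54, 1, 13 and 11 in LO and 24, 4, 6 and 3 in HI libraries, so the low values of Fosb rest on few reads. Fosl2 (ENSMUSG00000029135), which encodes the FRA2 subunit, did not pass the filter and was not tested. It lay between 0.200 and 0.516 FPKM in LO and between 0.166 and 0.995 FPKM in HI libraries, which corresponds to 1 to 5 reads.

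Jun (ENSMUSG00000052684), the first named of the JUN proteins, was at 209, 45.1, 60.6 and 66.2 FPKM in LO libraries F1, F2, M1 and M2, against 336, 82.8, 102 and 80.4 FPKM in HI libraries. F1 was by far the highest in both groups, and in all 4 labels the LO library was below the HI library, but the groups overlapped. The difference on the log2 scale was -0.64 with a 95% interval of -1.87 to 0.58 (limma, adjusted p = 0.571). Jun overlaps the antisense gene Junos, whose level ran from 11 to 80.0 FPKM in LO and from 16 to 90.2 FPKM in HI libraries. Whether counting used strand is not given in the sources used here, so reads of Jun and Junos cannot be told apart.

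Junb (ENSMUSG00000052837), a JUN subunit that pairs with BATF in mouse T cells, had the highest median of the 10 genes in both groups. It was at 1576, 239, 551 and 159 FPKM in LO libraries F1, F2, M1 and M2, against 1067, 144, 431 and 105 FPKM in HI libraries. The labels stood in the order of Fos, from high to low F1, M1, F2 and M2 in both groups, and the groups overlapped. In each label the LO library was above the HI library, by ratios of 1.48 in F1, 1.66 in F2, 1.28 in M1 and 1.5 in M2. Over the 8 libraries the log2 difference was 0.56 with a 95% interval of -1.30 to 2.42 and did not pass (limma, adjusted p = 0.768). Its direction turned under 1 of 19 alternatives, the fit without LO F1 alone, at -0.070, while without HI F1 alone the difference was 1.19. Without both F1 libraries it was 0.56, and without the F1 and M1 libraries it was 0.66, none of these past the threshold. Junb was called under 1 of the 19 alternatives, the fit with the label as a block, given in the last section. The labels do not state that pairing. Junb shares an exonic stretch with Prdx2 on the opposite strand, at 290 to 465 FPKM in LO and 259 to 302 FPKM in HI libraries. The labels of Prdx2 did not follow the order of Junb. Like Junb, Prdx2 was higher in the LO library in F1, F2 and M2, but in M1 it was lower, at 290 against 302 FPKM. Its part in the Junb values was not tested. Reads of the shared stretch cannot be told apart.

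Jund (ENSMUSG00000071076), the JUN subunit known for steady expression in resting cells, was at 41.9, 20.2, 22.0 and 8.0 FPKM in LO libraries F1, F2, M1 and M2, against 23.7, 17.9, 19.3 and 18.3 FPKM in HI libraries. The HI libraries were close together, LO F2 and LO M1 lay among them, LO F1 lay above them, and LO M2, the deepest library, lay below them. The log2 difference was 0.01 with a 95% interval of -0.91 to 0.93 (limma, adjusted p = 0.995). Jund overlaps the antisense gene Gm11175, at 9.27 to 34.1 FPKM in LO and 10.5 to 27.4 FPKM in HI libraries, and reads of the pair cannot be told apart.

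**Figure D3:**
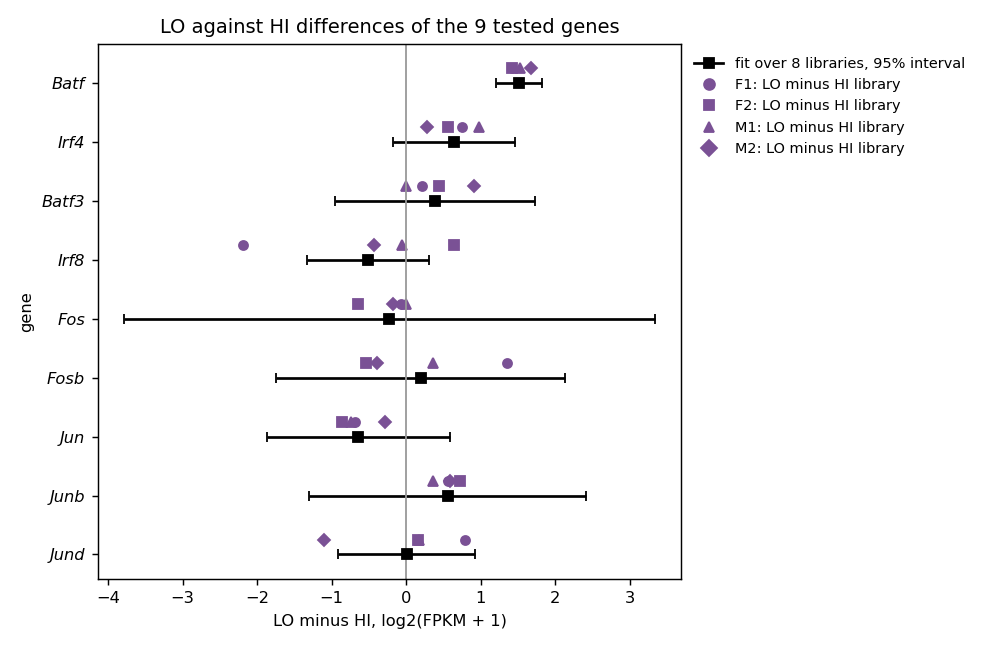
LO minus HI difference in log2(FPKM + 1) for the 9 tested genes: black squares and bars give the fit over 8 libraries with its 95% interval, and purple markers give the difference between the LO and the HI library of each label. The interval of Batf, 1.21 to 1.82, is the only one of the 9 that leaves out 0, and the interval of Fos, -3.78 to 3.34, is the widest.

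The order of the labels recurred in LO and HI cells. F1 held the highest value of Fos, Fosb, Jun, Junb and Jund in LO and again in HI cells, as it did for 6.98% of all tested genes. The complete order of the 4 labels was the same in LO and HI cells for Fos, Junb and Fosb, and for 4.92% of all tested genes. The strong spread of Fos and Junb between libraries was known when the genes were chosen, so these orders are a description, and no test between labels is given. Relative depth was 0.818, 0.818, 1 and 5.27 in LO libraries F1, F2, M1 and M2, and 1, 1.27, 0.636 and 0.818 in HI libraries. What separates the labels was not tested.

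Other immediate early genes were read from a list of 20, of which 16 were tested. F1 was highest in both groups for 10 of the 16, against 6.98% of all tested genes. Dusp1 was at 1173, 80.3, 304 and 72.5 FPKM in LO libraries F1, F2, M1 and M2, against 573, 35.1, 186 and 24.0 FPKM in HI libraries. It overlapped between the groups (limma, log2 difference 1.12, SE 1.11, adjusted p = 0.634) and had the order of Fos and Junb. Zfp36, an RNA-binding protein that shortens the life of cytokine messages, was at 288, 26.6, 99.7 and 17.1 FPKM in LO libraries, against 93.0, 24.7, 64.8 and 12.8 FPKM in HI libraries, again in the same order. Egr1, another immediate early transcription factor, did not show it: 14.4, 7.54, 8.42 and 16.1 FPKM in LO libraries F1, F2, M1 and M2, against 12.8, 10.9, 10.3 and 7.20 FPKM in HI libraries. Dusp1, Zfp36 and Egr1 were chosen after their values were seen.

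Between LO and HI cells, 1 of the 16 was called and 15 were not, against 8.29% of all tested genes called. Myc, a regulator of cell growth that is itself rapidly induced, fell to 29.5 ± 4.09 FPKM in LO cells, against 110 ± 19.9 FPKM in HI cells (SD, n = 4 each; limma, adjusted p = 0.000485). Its values did not overlap between the groups, and F1 was the lowest LO and the highest HI library. The median difference of the 16 was 0.16 on the log2 scale, against -0.03 over all tested genes.

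**Figure D4:**
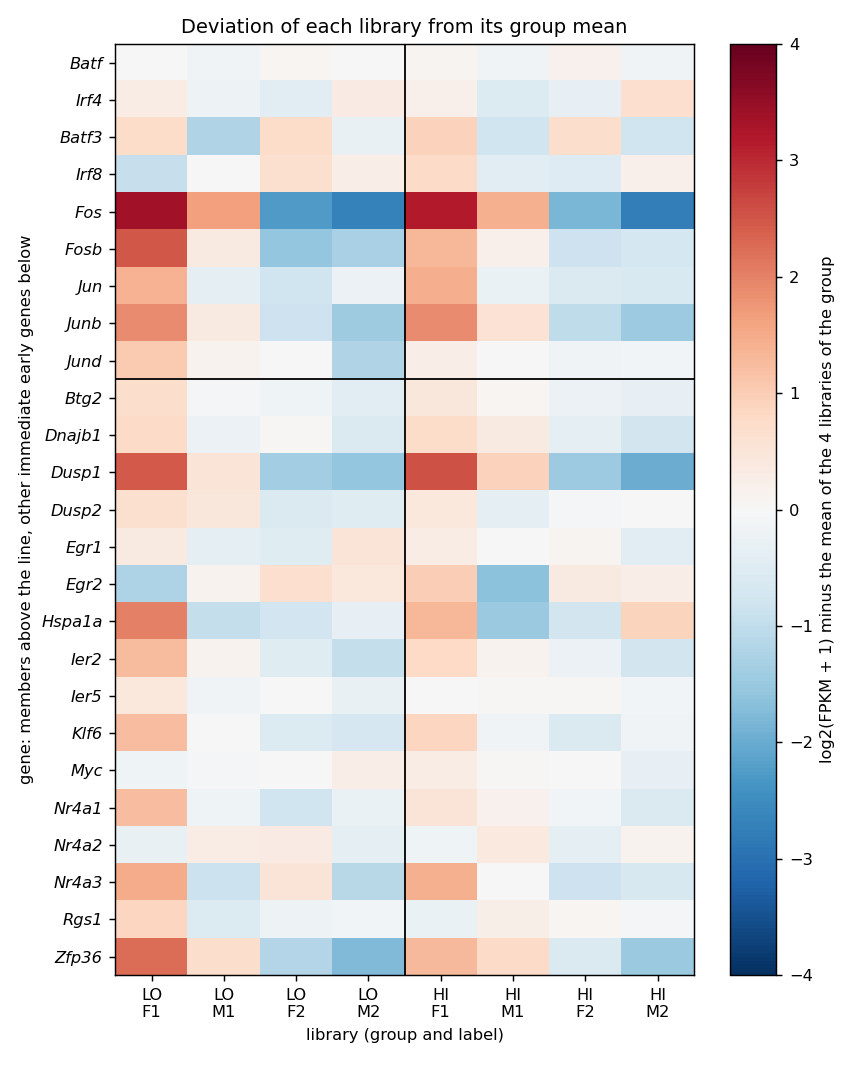
Deviation of each library from the mean of its group, in log2(FPKM + 1), for the 9 tested genes and the 16 tested immediate early genes, with LO libraries left of HI libraries. Fos deviates by 3.35 in LO F1 and 3.19 in HI F1 and by -2.72 in LO M2 and -2.76 in HI M2, and Junb, Dusp1 and Zfp36 share the pattern, while the Batf row stays near 0 throughout.

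The promoters of Fos, Junb, Fosb and Jun, which are among the genes whose F1 libraries were highest in both groups, are given here, with that of Batf, the gene that differed between LO and HI cells, for comparison. Each run is the 250 bases before the start site in RefSeq, written 5′ to 3′ on the strand of the gene, with coordinates on GRCm38.p6, while the expression values come from an older build. Capitals mark TGACG, the core of the cyclic AMP response element, and, in Jun, TGACATCA, a sequence related to the AP-1 element.
Fos, chr12:85473640-85473889, plus strand: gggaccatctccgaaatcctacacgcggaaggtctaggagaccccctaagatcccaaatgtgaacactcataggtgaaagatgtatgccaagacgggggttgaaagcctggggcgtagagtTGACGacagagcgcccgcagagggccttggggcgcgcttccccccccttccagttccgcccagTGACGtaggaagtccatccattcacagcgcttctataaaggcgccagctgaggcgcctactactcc
Junb, chr8:84978749-84978998, minus strand: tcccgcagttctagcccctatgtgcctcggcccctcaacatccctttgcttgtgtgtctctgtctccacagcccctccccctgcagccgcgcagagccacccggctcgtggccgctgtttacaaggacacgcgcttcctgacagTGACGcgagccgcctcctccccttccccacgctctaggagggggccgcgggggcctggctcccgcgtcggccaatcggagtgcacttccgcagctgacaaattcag
Fosb, chr7:19310046-19310295, minus strand: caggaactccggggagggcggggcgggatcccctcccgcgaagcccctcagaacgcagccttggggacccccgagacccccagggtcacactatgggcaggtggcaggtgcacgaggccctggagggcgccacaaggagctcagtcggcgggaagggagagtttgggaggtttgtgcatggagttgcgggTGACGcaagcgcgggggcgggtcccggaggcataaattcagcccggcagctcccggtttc
Jun, chr4:95052223-95052472, minus strand: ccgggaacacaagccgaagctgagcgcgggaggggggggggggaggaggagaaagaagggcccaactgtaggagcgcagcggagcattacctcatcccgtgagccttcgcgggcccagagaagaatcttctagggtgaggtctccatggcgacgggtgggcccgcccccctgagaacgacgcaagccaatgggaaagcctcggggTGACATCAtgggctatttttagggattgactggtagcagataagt
Batf, chr12:85686470-85686719, plus strand: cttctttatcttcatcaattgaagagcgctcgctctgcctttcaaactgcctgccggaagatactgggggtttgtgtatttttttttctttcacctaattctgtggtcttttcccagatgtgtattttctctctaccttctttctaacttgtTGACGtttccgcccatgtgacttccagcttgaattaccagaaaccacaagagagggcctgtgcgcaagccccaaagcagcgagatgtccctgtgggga
TGACG, searched on both strands, begins 129 and 66 bases before the start in Fos, 106 in Junb, 60 in Fosb and 98 in Batf, and 17.8% of 32851 RefSeq promoters of this length hold it. TGACATCA begins 45 bases before the start in Jun, and 2.93% of promoters hold it. The complete cyclic AMP response element TGACGTCA (1.55% of promoters, and containing TGACG) and the AP-1 element TGANTCA (6.75% of promoters) were not found in these windows for any of the 10 genes. The window of Jund, whose F1 libraries were also highest in both groups, holds none of the 4 motifs and is not printed.

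Because FOS and BATF proteins both pair with JUN proteins, the messages of the subfamilies were also set against each other within each library. Of the summed FPKM of the 8 AP-1 genes, Jun, Junb and Jund took 50.9, 48.4, 47.6 and 43.4% in LO libraries F1, F2, M1 and M2, against 46.6, 60.9, 50.9 and 64.5% in HI libraries. Fos, Fosb and Fosl2 took 41.2, 4.71, 33.4 and 4.05% in LO libraries, against 49.9, 11.8, 41.1 and 7.94% in HI libraries. Batf and Batf3 took 7.95, 46.9, 19.0 and 52.6% in LO libraries, against 3.49, 27.4, 8.02 and 27.5% in HI libraries. In F2 and M2 libraries the BATF share was larger than the FOS share, and in F1 and M1 libraries the FOS share was the larger, in LO as in HI cells. Of the FOS and BATF messages together, BATF made up 16.2, 90.9, 36.2 and 92.9% in LO libraries F1, F2, M1 and M2, against 6.54, 70.0, 16.3 and 77.6% in HI libraries. The LO library was above the HI library in each label, but the ranges of the groups overlapped, and the range over labels was wider than any LO to HI difference within a label. These shares describe message per length and not protein.

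**Figure D5:**
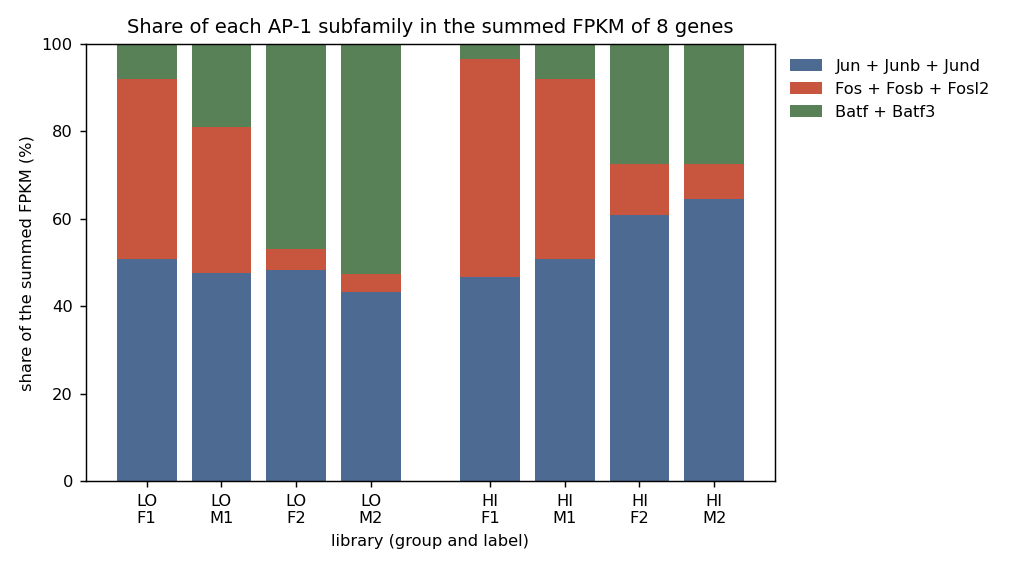
Share of the JUN, FOS and BATF subfamilies in the summed FPKM of 8 AP-1 genes (%), for each LO and each HI library. The BATF share is 46.9% and 52.6% in LO F2 and LO M2, against 27.4% and 27.5% in HI F2 and HI M2, and it is smaller in every F1 and M1 library, where the FOS share is 33.4% to 49.9%.

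Sex was compared on the mean of the LO and the HI library of each label, F1 and F2 against M1 and M2, and 2 genes were called (0.0178%), with 377 at an unadjusted p below 0.05 (3.35%). With a label left out, 3 to 12 genes were called, 12 of them without M1 and 4 without F2 or without M2. None of the 9 tested genes was called with limma, and 1 had an unadjusted p below 0.05: Batf3, higher in females by 1.55 on the log2 scale (limma, unadjusted p = 0.0106, adjusted p = 0.999), on the 1 or 2 reads given above. For Fos the female minus male difference of 1.22 had a standard error of 1.98, since F1 and F2 differed from each other as M1 and M2 did. The interaction of sex and reporter level called 2 genes (0.0178%), with 431 at an unadjusted p below 0.05 (3.83%), and 0 of the 9 tested genes passed, at an adjusted or an unadjusted p. It called 1 gene when LO F2, LO M1, LO M2, HI M1 or HI M2 was left out. For Batf the LO minus HI difference was 1.43 in females and 1.6 in males, on the log2 scale, and the interaction was -0.18 ± 0.287 (SE; limma, adjusted p = 0.999).

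Further genes of the same families and of the pathways that lead to them were read from lists. Of 6 other AP-1 genes, 5 were in the table and 1 was tested, Atf2, at 31.9 ± 6.78 FPKM in LO and 35.0 ± 3.59 FPKM in HI cells (SD, n = 4 each; limma, adjusted p = 0.749). Fosl1, which encodes FRA1, was listed at 0 in all 8 libraries. Of 7 other interferon regulatory factors tested, 0 were called with limma and 0 had an unadjusted p below 0.05, and Irf1 was the most abundant of them at 283 ± 69.5 FPKM in LO and 243 ± 47.2 FPKM in HI cells (SD, n = 4 each). Of 15 leucine zipper genes of the ATF, CREB and CEBP families, 12 were tested and 1 was called, against 8.29% of all tested genes. Nfil3, a leucine zipper repressor induced by cytokines, rose to 16.4 ± 7.61 FPKM in LO cells, against 1.65 ± 1.13 FPKM in HI cells (SD, n = 4 each; limma, adjusted p = 0.00654). Of 17 genes of the MAP kinase pathways that act on AP-1, all were tested and 1 was called, against the same 8.29%. Map2k3, a kinase upstream of p38, rose to 94.0 ± 14.4 FPKM in LO cells, against 38.1 ± 13.2 FPKM in HI cells (SD, n = 4 each; limma, adjusted p = 0.0141), and the median difference of the 17 was -0.07 on the log2 scale.

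A list of 10 effector Treg genes linked to BATF or IRF4 in mice, chosen with results of these libraries known, had 9 tested members, and all 9 were higher in LO cells, against 4.65% of all tested genes. Their median difference was 2.57 on the log2 scale, against 0.20 for the 9 tested AP-1 and IRF genes and -0.03 over all tested genes. Icos, a costimulatory receptor, averaged 238 ± 22.1 FPKM in LO and 37.2 ± 10.2 FPKM in HI cells (SD, n = 4 each; limma, adjusted p = 0.00013). Maf, a leucine zipper transcription factor, averaged 33.7 ± 2.55 FPKM in LO and 2.91 ± 0.893 FPKM in HI cells (SD, n = 4 each; limma, adjusted p = 0.000153). Klrg1, an inhibitory receptor, was at 328 to 424 FPKM in LO libraries and at 0 to 9.27 FPKM in HI libraries. Il1rl1, the receptor of interleukin 33, averaged 10.1 ± 2.05 FPKM in LO and 0.473 ± 0.191 FPKM in HI cells (SD, n = 4 each; limma, adjusted p = 0.00057). Ccr8, Prdm1, Ebi3, Il10 and Gata3 were the other called members, of which Il10 was listed at 0 in all HI libraries, and Pparg did not pass the filter. Since the list was chosen in this way, its count is a description and not independent evidence of its direction.

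Genes whose pattern over the 8 libraries was most like that of Batf were Eloa, Myadm, Tox2, Myo1g and Plekho2, with Pearson r of log2(FPKM + 1) from 0.984 to 0.992. For Irf4 they were Zfp26, Tcf19, Maea, Mccc1 and Manba, with r from 0.923 to 0.941. For Fos they included Tob1, Junb, Rn7sk and Zfp36, with r from 0.936 to 0.956, and for Junb they were Dusp1, Nfkbiz, Ier2, Zfp36 and Fos, with r from 0.951 to 0.990. Each r describes 8 points that share their libraries and fall into LO and HI groups, and the 5 genes were the highest of all tested genes with a mean of at least 5 FPKM. The lists of Fos and Junb shared Zfp36 and contained each other, while those of Batf and Irf4 held none of the 10 genes. An r does not measure the size of a change. Myadm, a membrane protein of myeloid and lymphoid cells, was lower than Batf and differed between LO and HI libraries by a larger ratio. Its level was 24.9, 19.6, 19.5 and 14.5 FPKM in LO libraries F1, F2, M1 and M2, against 1.74, 1.36, 0.682 and 0.530 FPKM in HI libraries.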

How the data were processed

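RNA was measured by sequencing in 8 libraries of sorted spleen Treg cells, placed in the LO or HI group by title, 4 each. Per the labels' protocols, CD4 T cells were enriched, sorted by flow cytometry and kept in RNAlater, and libraries were made with SmartSeq2 and sequenced on an Illumina HiSeq. The submitters' processing notes name HISAT2, cutadapt and FastQC and the builds mm9 and NCBIM37, with no version. The deposited values are FPKM per Ensembl gene model, from Cuffnorm per the name of the table; the authors' scaling method, annotation and use of strand were not given in the sources used here. The series' design text describes another experiment and was not used.

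Symbols were taken by Ensembl identifier for 31840 of 36811 models, and 133 of 134 listed symbols were in the table. Read totals were not recovered. Depth relative to HI F1 was the most frequent ratio of values among models below 2 FPKM. Values in units of 1 read are given where all 8 came within 0.02 of a whole number.

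Genes with at least 1 FPKM in at least 4 libraries were transformed to log2(FPKM + 1) and fitted in R 4.3.3 with limma 3.58.1 and its trended variance, and p-values were adjusted by Benjamini-Hochberg over all 11260 tested genes and called at 0.05. On this scale the change of low genes is understated; ratios in the text are of FPKM. Sex was tested on label means, 2 against 2, and the interaction over 8 libraries. The fits were checked on simulated data. Alternatives covered another pseudocount (0.1), another filter (5 FPKM or none), quantile and upper quartile scaling, no variance trend, sex as a covariate, a block for the label, and fits with libraries left out. The rule for named genes took all 10 genes, Bach2 and Foxp3, from each list up to 4 called genes of lowest p, and the 5 genes most like Batf, Irf4, Fos and Junb. Of the genes this rule took, 2 are not reported here. The 10 genes and the lists were chosen with earlier results of these data known. Promoters are from RefSeq on GRCm38.p6, where all 10 genes matched.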

Additional observations from a re-analysis of the deposited data

Results flagged for a closer look

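Jun in LO F1, at 209 FPKM, stood apart from the other 3 LO libraries, which reached at most 66.2 FPKM. Jun in HI F1, at 336 FPKM, stood apart from the other HI libraries in the same way, the next being HI M1 at 102 FPKM. Fosl2 in HI M1, at 0.995 FPKM, stood above the other HI libraries, which reached at most 0.258 FPKM; the value corresponds to 3 reads, against 1 in each of the others. These came from a check of the 20 sets of 4 libraries, the LO and the HI libraries of each of the 10 genes, for a highest or lowest value far from the rest. If values were normally distributed, chance alone would give such a value in about 1 of 20 sets. Whether these FPKM are so distributed was not tested.

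Fosl2 also had opposite signs of the LO minus HI difference by sex: both female labels were positive, with a mean of 0.22, and both male labels negative, with a mean of -0.39, on the log2 scale. The gap of 0.61 was not tested, and it rests on 1 to 5 reads in each library.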

How the results depend on the processing

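Batf was called under all 19 alternatives, with log2 differences of 1.46 to 1.57 and adjusted p from limma of 0.000248 to 0.0437. Irf4 (0.36 to 0.87) and Jun (-1.11 to -0.16) kept their direction and did not pass under any. Batf3 did not pass either, at 0.12 to 0.79 with 1 M library left out (without an F library it was not tested), 0.12 with quantile scaling and 1.05 with a pseudocount of 0.1. The genes called between LO and HI cells, 934 in all, fell to 586 to 754 with 1 library left out, 586 without LO F2. They were 430 without both F1 libraries, 209 without the F1 and M1 libraries, and 545 without HI M1 and LO M2, on fewer samples; these last 3 alternatives were chosen after seeing the data. Irf8 turned to 0.050 without both F1 libraries and to 0.10 without the F1 and M1 libraries. Jund turned to -0.25 and -0.47 and Fosb to -0.19 and -0.47 under the same alternatives, and with a pseudocount of 0.1 to -0.0019 and -0.0033. Fos turned to 1.15 without HI M1 and LO M2. With 1 library left out, Junb ranged from -0.070 to 1.19, Jund from -0.34 to 0.41, Fos from -1.34 to 0.84 and Fosb from -0.63 to 0.72. Sex called 2 genes, 1 with a pseudocount of 0.1, with no filter or without a trend, and 3 to 12 with 1 label left out. The interaction called 2, 1 with no filter and 1 to 2 with 1 library left out. The cause of these changes was not tested.

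With the label as a replicate block, 771 genes were called and 2 of the 9 genes, Batf and Junb (difference 0.56, limma adjusted p = 0.045); Jun had an adjusted p of 0.0664 from limma. Among the genes of the other lists, Dusp1 was called as well (limma adjusted p = 0.0125), and Fcgr3 (0.0552) and Ikzf2 (0.0605) were not. The labels do not state that the numbers pair the libraries, and the deviations of LO and HI libraries of the same label correlated at 0.052 in F1, 0.015 in F2, 0.070 in M1 and 0.11 in M2, not all over 0.1. LO F1, M1 and M2 correlated best with the HI library of their own label, and LO F2 with HI M2. Read totals are not known, and values of Batf3, Fosb and Fosl2 near 1 read have the largest counting error.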
